A study of Mus musculus with 2 samples.

Results

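The nuclear genes of oxidative phosphorylation were taken from the 24421 genes of the deposited tables by symbol. A gene was a member when its symbol started with Ndufa, Ndufb, Ndufc, Ndufs, Ndufv, Uqcr, Cox4, Cox5, Cox6, Cox7, Cox8 or Atp5, or was Sdha, Sdhb, Sdhc, Sdhd or Cyc1, with symbols of pseudogenes left out. The rule uses no measured value and gave 93 members, of which 45 belong by symbol to complex I, 4 to complex II, 9 to complex III, 18 to complex IV and 17 to complex V. Of the 93 members, 9 are no subunits of a finished complex, namely the complex I assembly factors Ndufaf1 to Ndufaf7 and the genes Atp5s and Atp5sl. Of the remaining 84 structural genes, 81 had reads in at least 1 library, and Cox7b2, Cox8b and Cox8c were listed at 0 in both.

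RNA was sequenced from WT Th1 cells (Chi3l1+/+) and Chi3l1 KO Th1 cells (Chi3l1-/-), both of the C57BL/6J strain, to compare gene expression with and without chitinase 3-like 1. The mice were 6 to 8 weeks old, and naive CD4 T cells were activated in culture with anti-CD3 and anti-CD28 antibodies and skewed to Th1 cells with IL-12, IL-2 and an antibody against IL-4, in both genotypes alike. Each genotype is 1 library, so no difference given here has a replicate check or a test, and no p-value is given. The naive samples were not analysed here, and how many mice a library holds is not given in the sources used here.

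The gene that separates the groups went against its labels. Chil1, the symbol of Chi3l1 in the tables, had 1 read in the library labelled WT Th1 and 104 reads in the library labelled Chi3l1 KO Th1, as log2 values of 0.94 and 6.66. The values are per gene, so reads from parts of the gene outside the deletion cannot be seen, and whether the labels are crossed was not tested. Ifng, the defining cytokine of Th1 cells, had 3492 reads in the library labelled WT Th1 and 8756 in the library labelled Chi3l1 KO Th1. Of the 4 Th1 markers looked at, Ifng among them, 2 were higher and 2 lower in the library labelled Chi3l1 KO Th1. The libraries are therefore called WT-labelled and KO-labelled below, and every direction is drawn between labels. Normalized counts summed to 68448996 in the WT-labelled library and to 60913079 in the KO-labelled one, and the members took 0.80% and 0.84% of them. The T cell markers Cd3d, Cd3e, Cd3g, Cd4 and Lck were present in both libraries, with a log2 value of at least 11.91 each. All 5 were lower in the KO-labelled library, with log2 fold changes from -0.37 for Cd4 to -0.002 for Lck. Reads of 5 macrophage and monocyte markers summed to 535 and 478 in the WT- and KO-labelled libraries. Those of 4 dendritic cell markers summed to 62 and 78, and genes of both lists went each way. Reads of the 3 B cell markers Ms4a1, Cd79a and Cd79b summed to 598 and 921, all 3 higher in the KO-labelled library, and reads of 5 neutrophil markers summed to 51 and 0, with Camp at 0 in both. The ribosomal RNA precursor Rn45s took 2.83% and 1.0% of the counts, and the part of these differences in the results below was not tested.

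Oxidative phosphorylation passes electrons from NADH through complex I and from succinate through complex II to ubiquinone, then through complex III and cytochrome c to oxygen at complex IV. Complexes I, III and IV pump protons across the inner mitochondrial membrane, and complex V, the ATP synthase, lets them flow back to make ATP. All complexes but complex II combine subunits encoded in the nucleus with subunits encoded by mitochondrial DNA, and T cells raise both glycolysis and respiration when they are activated. Symbols of the mitochondrially encoded subunits were not found in the tables, 0 of 13, and these genes were not analysed here.

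NRF1 is a transcription factor known for binding promoters of nuclear respiratory chain genes, and its site reads nearly alike on both strands. RefSeq windows from 250 bases before to 50 bases after the start site were at hand for 76 of the 93 members. The letters GCATGCGC, on either strand, stood in 12 of these 76 windows (15.8%), against 3.05% of the windows of 27025 genes and 7.04% of those of 7105 well-expressed genes, as genes at 8 or more on the deposited log2 scale in each library are called below. Stretches of 30 bases around these letters are printed for 6 members, to show the site beside genes of each direction, on the gene's strand and in build GRCm38.p6, with the NRF1 letters in capitals. Ndufa8 (chr2:36049327-36049356, minus strand) and Sdhb (chr4:140961207-140961236, plus strand) were higher in the KO-labelled library. Ndufa11 (chr17:56717692-56717721, plus strand), Cox6a1 (chr5:115349101-115349130, minus strand), Atp5k (chr5:108434430-108434459, minus strand) and Atp5g2 (chr15:102671070-102671099, minus strand) were lower. In the 4 lower genes printed the letters stand on both strands and overlap, so the run in capitals is longer. This does not hold for all members with the letters. Ndufaf5, which was higher, also has them overlapping on both strands, and Atp5l and Uqcr11, which were lower, have them on a single strand. Counted from RefSeq's start site, the capitals begin 8 bases before it in Ndufa8, 54 in Sdhb, 60 in Ndufa11, 162 in Cox6a1, 50 in Atp5k and 42 in Atp5g2.
Ndufa8: cgctggagacGCATGCGCagatggtaccgg
Sdhb: agcccagtggGCATGCGCcctacgggccgc
Ndufa11: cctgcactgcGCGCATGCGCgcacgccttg
Cox6a1: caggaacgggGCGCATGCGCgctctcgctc
Atp5k: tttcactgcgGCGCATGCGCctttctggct
Atp5g2: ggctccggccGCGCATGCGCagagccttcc

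Across the 12 members with the NRF1 letters the median log2 fold change was -0.14, with 3 higher and 9 lower in the KO-labelled library, and across the other 62 members with reads and a window it was 0.005, with 31 higher and 31 lower. With the trend with GC content removed, which is described below, the same 12 members had a median of -0.03, with 6 higher and 6 lower. Sdhb, Ndufa8 and Ndufaf5 were the 3 higher ones. The YY1 letters AAGATGGC stood in 11 of the 76 windows (14.5%), against 3.19% of all windows and 6.05% of those of the well-expressed genes, with a median log2 fold change of -0.05. The letters CCGGAAGT of ETS factors such as GABPA stood in 5 windows (6.6%), against 4.31% and 10.98%, with a median of 0.15. Of these 3 sets of letters, those of NRF1 and YY1 were thus found in a larger share of member windows than of the well-expressed genes' windows, and those of ETS factors in a smaller share. A match is a description of the letters in the window and not a measured binding site.

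Fold changes were taken as the deposited log2 value of the KO-labelled library minus that of the WT-labelled one. The interval beside a fold change is an exact binomial (Clopper-Pearson) 95% interval from rebuilt read counts, which covers counting error only and not the variation between mice or cultures. Over the 81 structural genes with reads the median log2 fold change was 0.007, with 41 genes higher and 40 lower and quartiles of -0.21 and 0.24. The median over all 16148 genes with reads was -0.007, and that over the 8886 well-expressed genes was -0.011. The set thus had a median close to that of all genes. With the libraries scaled to equal totals or to Actb, 67.9% or 63.0% of the 81 genes were higher, as the values of all genes moved up together. In bulk RNA, fewer cells of a type and less RNA per cell cannot be told apart.

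Few members were past 2-fold. Of the 93 members 2 (2.2%) were at least 2-fold higher in the KO-labelled library, against 4.7% of all genes, and 2 (2.2%) were at least 2-fold lower, against 5.81%. All 4 had few reads, and the 1 added before the log weighs on their folds. Ndufa5, an accessory subunit of complex I, had 15 reads in the WT-labelled and 38 in the KO-labelled library, and Cox4i2, a subunit form of complex IV best known from lung, had 33 and 11. Cox6a2, the form of heart and skeletal muscle, had 0 and 4 reads, and the lower end of its counting interval was -0.60, on the other side of 0. Ndufa4l2, a paralog of Ndufa4, had 3 and 0 reads, and no fold is given for it. Of the 76 well-expressed members, 0 were past 2-fold in either direction, against 0.461% of all well-expressed genes higher and 0.743% lower.

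A smaller line was drawn at 25% higher or 20% lower. At least 25% higher were 15 members (16.1%) and at least 20% lower were 14 (15.1%), against 16.6% and 18.5% of all genes. Among the 76 well-expressed members, 11 (14.5%) were higher and 10 (13.2%) lower, against 16.3% and 19.6% of all well-expressed genes. Genes at 0 in both libraries cannot pass a line, and the shares of all genes count them, while only 3 members are such genes. Of the 16148 genes with reads, 4066 were higher and 4507 lower past the smaller line, and 1147 and 1418 past 2-fold. Among well-expressed genes the shares of members were below those of all genes in both directions, by more for the lower ones. Whether the members differ from other genes in these shares was not tested. For 30 of the 71 well-expressed structural genes the counting interval lay above 0, for 30 it lay below 0 and for 11 it held 0. At this depth, counting error was thus smaller than the difference between the libraries for most subunit genes, while the spread between cultures is unknown.

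**Figure D1:**
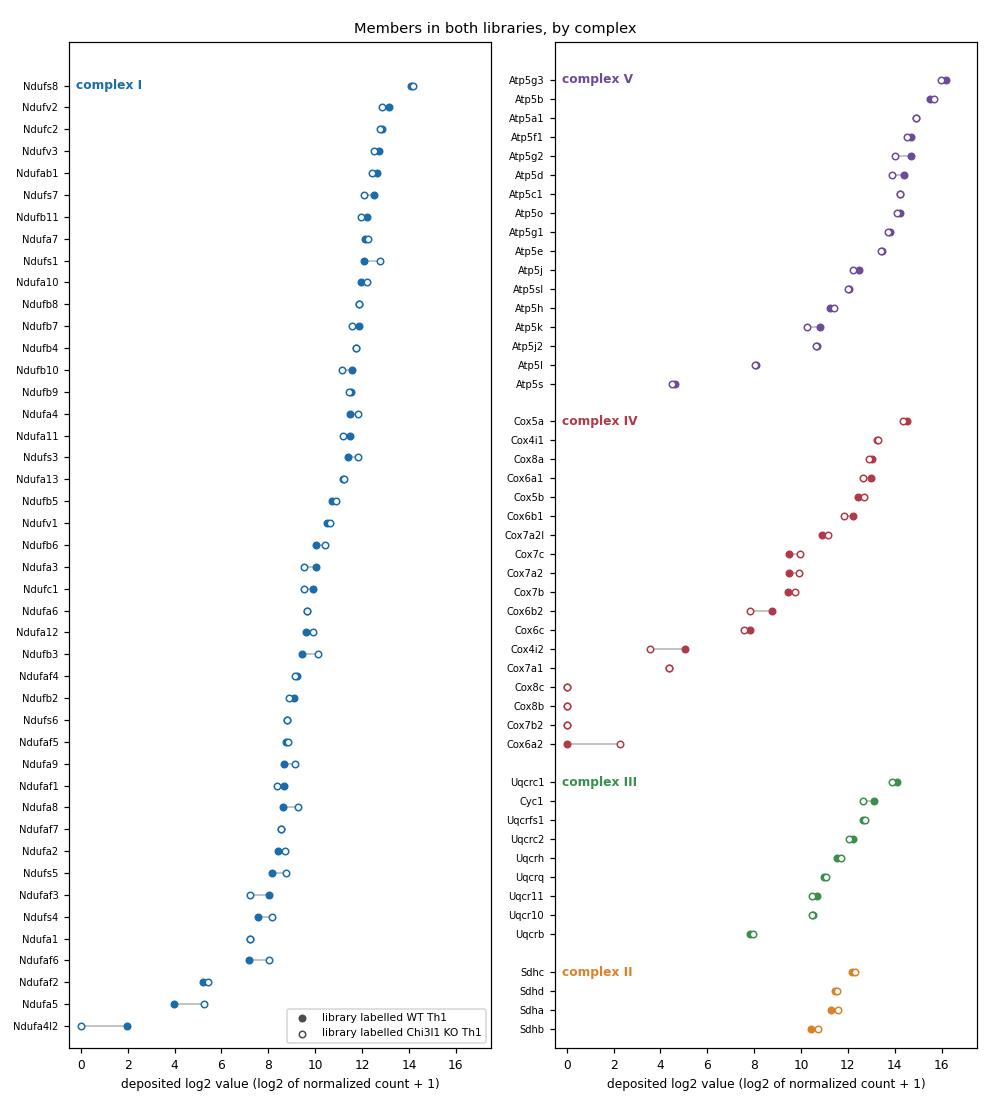
Deposited log2 value (log2 of the normalized count plus 1) of 92 members, in panels by complex, with a filled point for the WT-labelled library and an open point for the KO-labelled one joined by a line. Most pairs nearly coincide, and the long lines at the bottom belong to genes with few reads such as Ndufa5, Ndufa4l2, Cox4i2 and Cox6a2.

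Complex I, the NADH dehydrogenase, had 38 structural genes with reads. Of these 22 were higher and 16 lower in the KO-labelled library, with a median log2 fold change of 0.05. Ndufa4 is counted here by its symbol, though its product is assigned to complex IV. With Ndufa4 in complex IV the medians were 0.026 for complex I and 0.014 for complex IV. Past the smaller line were 10 higher and 5 lower of the 38, against 4066 and 4507 of all 16148 genes with reads. The share of higher ones was thus near that of all genes with reads, and the share of lower ones was below it. Of the 34 well-expressed ones 8 were higher and 4 lower past that line, against 16.3% and 19.6% of all well-expressed genes. Whether these shares differ was not tested. The 7 core subunits, which hold the flavin and the iron-sulfur clusters of the electron path, had a median of 0.11, with 5 higher and 2 lower. Among them Ndufs1, the largest subunit of the complex and a carrier of iron-sulfur clusters, had a log2 value of 12.09 in the WT-labelled and 12.77 in the KO-labelled library, a log2 fold change of 0.68 (interval 0.62 to 0.73). This was also the highest fold change of any well-expressed subunit gene of complex I, and Ndufs1 (chromosome 1, bases 63143596 to 63176833, minus strand, mm10) shares exon sequence positions with Eef1b2 on the other strand. Whether the counting used strand is not given in the sources used here, so reads of overlapping genes cannot be told apart.

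Other core subunits spread to both sides. Ndufs3, of the peripheral arm, went from 11.39 to 11.81. Ndufv1, which binds NADH and the flavin, went from 10.51 to 10.61, and Ndufs8, the highest of all complex I subunits per length, from 14.08 to 14.19. The lower ones were Ndufv2, from 13.15 to 12.85, and Ndufs7, which carries the last iron-sulfur cluster before ubiquinone, from 12.52 to 12.09. The log2 fold change of Ndufs7 was -0.43 as deposited and -0.04 once the trend with GC content, described below, was removed, while that of Ndufv2 was -0.30 and -0.50.

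The accessory subunits surround the core and are needed for its assembly and stability. The 30 accessory genes with reads had a median of 0.02, with 17 higher and 13 lower. Ndufb3, of the membrane arm, had log2 values of 9.45 and 10.11 in the WT- and KO-labelled libraries, and Ndufa8, a subunit facing the intermembrane space whose NRF1 letters are printed above, had 8.62 and 9.27. Their log2 fold changes were 0.66 (interval 0.52 to 0.80) and 0.65 (0.47 to 0.84), or 722 against 1142 reads and 405 against 639 reads. Ndufs5 and Ndufs4 were higher by 0.59 each, with 296 and 448 reads for Ndufs5 and 193 and 291 reads for Ndufs4, whose loss is a known cause of complex I deficiency. Ndufa3, with 10.01 and 9.53, and Ndufb10, with 11.57 and 11.13, had the lowest fold changes among the well-expressed ones, -0.48 (interval -0.62 to -0.35) and -0.44 (-0.52 to -0.36). Genes of the same arm of the complex therefore differed in direction, and the range within complex I, from -0.48 to 0.68, was wider than the distance between the medians of any pair of complexes.

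The 7 complex I assembly factors, which bind intermediates and leave before the complex is complete, ranged from Ndufaf3 to Ndufaf6. Ndufaf3 had log2 values of 8.03 and 7.21, a log2 fold change of -0.82 (interval -1.11 to -0.53), and Ndufaf6 had 7.19 and 8.04, a log2 fold change of 0.85 (0.56 to 1.15). The remaining 5 lay between -0.30 for Ndufaf1 and 0.21 for Ndufaf2, whose 37 and 43 reads leave an interval from -0.45 to 0.89. Most of the Ndufaf2 transcript (80.5% of its 100-base stretches) is shared with another gene, so its value is uncertain. Atp5s and Atp5sl, taken in by the Atp5 prefix, had log2 fold changes of -0.12 and -0.05.

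Complex II, succinate dehydrogenase, is also an enzyme of the citric acid cycle and has no mitochondrially encoded subunit. All 4 of its genes were higher in the KO-labelled library, with a median log2 fold change of 0.23, the highest of the 5 complexes as deposited, and the median stayed above 0 under every scaling tried. Sdha, the flavoprotein, had log2 values of 11.26 and 11.58, a log2 fold change of 0.32 (interval 0.25 to 0.40) and the only one of the 4 that reached 25% higher. Sdhb, the iron-sulfur protein with the NRF1 letters shown above, had 10.44 and 10.74, a log2 fold change of 0.30 (0.20 to 0.40). The membrane anchors Sdhc and Sdhd, which hold a heme group, had smaller ones of 0.17 (0.11 to 0.22) and 0.08 (0.01 to 0.16). The catalytic pair was thus further from 0 than the anchor pair, and all 4 intervals lay above 0. With 4 genes and 1 library each, this is a description of these libraries.

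Complex III, the cytochrome bc1 complex, had 4 genes higher and 5 lower, with a median log2 fold change of -0.04 that turned to 0.13 with totals scaled equal and to 0.08 with scaling to Actb. Cyc1, which encodes cytochrome c1, had log2 values of 13.12 and 12.65, a log2 fold change of -0.48 (interval -0.52 to -0.43), and was the only gene of the complex past the smaller line. With the trend with GC content removed its log2 fold change was -0.02, and the GC content of its longest transcript was 61.4%. Uqcrfs1, the Rieske iron-sulfur protein and the other nuclear gene with a redox role, went from 12.63 to 12.72. The core proteins Uqcrc1 and Uqcrc2 were lower, by -0.18 and -0.19 on the log2 scale, as was Uqcr11 by -0.21, and Uqcr10 stood at -0.04. Uqcrh, the hinge protein, stood at 0.145, Uqcrq at 0.11 and Uqcrb, with 236 and 256 reads, at 0.12 with an interval from -0.15 to 0.38.

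Complex IV, cytochrome c oxidase, has 18 nuclear members here, which are common forms and paralogs of restricted tissues. The 11 common forms had a median log2 fold change of 0.03, with 6 higher and 5 lower. Cox7c, with log2 values of 9.50 and 9.95, and Cox7a2, with 9.48 and 9.90, had the highest log2 fold changes, 0.44 (interval 0.31 to 0.58) and 0.42 (0.28 to 0.56). Cox6b1, on the intermembrane side, had 12.21 and 11.82 and the lowest, -0.39 (-0.45 to -0.33). Cox6a1 had 12.98 and 12.66, a log2 fold change of -0.33, which became 0.13 with the GC trend removed, at a GC content of 62.7%. Cox4i1, a regulatory subunit that binds ATP, stood at 0.03, Cox5a at -0.16, Cox5b at 0.24 and Cox8a at -0.12. With the GC trend removed Cox4i1 stood at 0.345, Cox5a at -0.365, Cox5b at 0.185 and Cox8a at 0.23. Common forms thus lay on both sides of 0, and which side a gene lay on could change with the GC trend. With the 15 genes with reads the median of the complex was -0.002. This is the value of 1 restricted paralog, Cox7a1, with 20 reads in each library and an interval from -0.97 to 0.97. The median turned to 0.16 with totals scaled equal and to 0.11 with scaling to Actb, again the values of Cox7a1. Over the 10 well-expressed genes of the complex the median was 0.13 as deposited.

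The restricted paralogs of complex IV were low, as levels per kb of longest transcript show. Cox4i1 stood 294 times above Cox4i2 in the WT-labelled library and 905 times in the KO-labelled one, where Cox4i2 had only 11 reads. Cox7a2 stood 27.1 and 36.2 times above Cox7a1, the form of heart and skeletal muscle, which had 20 reads in each. Cox6b2, known from testis, was the exception in level, with 448 and 234 reads. It lay 10.3 and 15.1 times below Cox6b1, and its log2 fold change of -0.94 (interval -1.17 to -0.71) was the lowest of any member with at least 100 reads in both libraries. Cox8a was at least 1750 times above Cox8b and at least 2230 times above Cox8c in both libraries, and Cox7b at least 130 times above Cox7b2, with a count of 0 taken as up to 3 reads. Cox6a1 was at least 3060 times above Cox6a2 in the WT-labelled library. In each of these pairs the common form was thus far above the restricted one in both libraries.

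Complex V, the ATP synthase, had the lowest median log2 fold change as deposited, -0.09, with 4 of its 15 subunit genes higher and 11 lower, and with 0 higher and 3 lower past the smaller line. Of all 8886 well-expressed genes 4333 were higher and 4548 lower, with 16.3% higher and 19.6% lower past that line. Scaling the libraries to equal totals or to Actb brought the median of all genes with reads to 0.145 or 0.094. Under these the median of complex V turned to 0.08 and 0.03, still the lowest of the 5 complexes and below that of all genes. Over well-expressed genes alone complex III was lower, at -0.11 against -0.09, and without members that share a 100-base stretch complex IV was, at -0.12 against -0.04. Atp5g2, 1 of 3 genes for the c subunit of the rotating ring, had log2 values of 14.68 and 14.03, a log2 fold change of -0.66 (interval -0.69 to -0.63) and the lowest of all well-expressed subunit genes. Atp5k, the e subunit of the membrane part, had 10.81 and 10.26, a log2 fold change of -0.55 (-0.66 to -0.45). Atp5d, the delta subunit of the central stalk, had 14.41 and 13.89, a log2 fold change of -0.53 (-0.56 to -0.50). The 3 genes have a high GC content (63.4%, 55.8% and 59.3%), and with the GC trend removed their log2 fold changes were -0.20, -0.35 and -0.15.

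The catalytic head of the ATP synthase was different. Atp5b, the beta subunit that holds the catalytic sites, had log2 values of 15.52 and 15.68, a log2 fold change of 0.16 (interval 0.14 to 0.18). Atp5a1, the alpha subunit, and Atp5c1, the gamma subunit of the shaft, stood at 0.007 and 0.01, with intervals that held 0. In the peripheral stalk Atp5h, the d subunit, stood at 0.18, Atp5o at -0.12, Atp5f1 at -0.16 and Atp5j at -0.26. Atp5j overlaps exons of Gabpa on the other strand, and 31.0% of the 100-base stretches of Atp5o occur in another gene's transcript. Atp5e stood at -0.05, Atp5l at -0.04 and Atp5j2 at -0.03. The lower median of the complex thus came from many small differences, with 3 genes at least 20% lower, a share near that of all well-expressed genes.

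**Figure D2:**
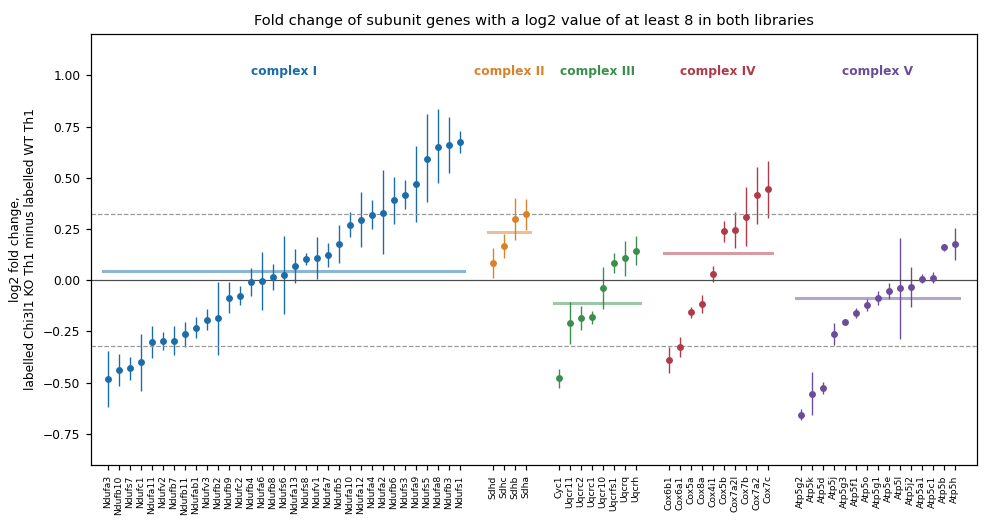
Log2 fold change (y axis, KO-labelled minus WT-labelled library) of 70 well-expressed subunit genes (8 or more on the log2 scale in each library), sorted within each complex on the x axis, with 95% counting intervals as bars, the complex median as a thick line and dashed lines at 25% higher and 20% lower. All 4 complex II genes lie above 0, 11 of the 15 complex V genes lie below it as deposited, and complexes I, III and IV spread to both sides.

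The c ring of the ATP synthase is built from identical mature c subunits that 3 genes encode. Per kb of coding length, Atp5g3 made up 65.1% of the level of the 3 genes in the WT-labelled and 68.3% in the KO-labelled library. Atp5g2 made up 22.0% and 16.9%, and Atp5g1 12.9% and 14.8%. Coding length was used here because the longest transcript listed for Atp5g1 has 4715 bases, against a coding length of 408. As deposited, Atp5g2 alone lost share between the labels, while the summed level was led by Atp5g3 in both. In log2 values Atp5g3 went from 16.20 to 15.99 and Atp5g1 from 13.82 to 13.73, so all 3 were lower in the KO-labelled library. With the GC trend removed the log2 fold changes of Atp5g1, Atp5g2 and Atp5g3 were -0.21, -0.20 and -0.25. Atp5g2 then did not stand apart from the other c subunit genes.

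Levels per length were highest in complex V in both libraries. The median normalized count per kb of longest transcript in complex V was 10503 in the WT-labelled and 9407 in the KO-labelled library, and complex III had 2875 and 2799. Complex I had medians of 1619 and 1676, complex II 1282 and 1500, and complex IV 1082 and 1443. Complex V thus stood 3.65 and 3.36 times above complex III, 6.49 and 5.61 times above complex I, 8.19 and 6.27 times above complex II, and 9.71 and 6.52 times above complex IV. The complex IV median depends on its restricted paralogs: over the 11 common forms it was 6414 and 5833, second to complex V, which then stood 1.64 and 1.61 times above it. Per kb of coding length complex V also led, with 29525 and 27422, followed by the common forms of complex IV with 14336 and 13971 and by complex III with 8133 and 8178. Complex V genes together held 56.0% and 54.3% of the normalized counts of the structural members, and Atp5g3, Atp5b and Atp5a1 alone held 28.2% and 29.2%.

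Within complexes the levels differed far more than between libraries. In complex I Ndufs8 had 17267 and 18545 normalized counts per kb of longest transcript, and Ndufc2, of the membrane arm, 10876 and 10318, while Ndufb2 had 123 and 108. In complex III Uqcrc1 stood highest with 7017 and 6185 and Uqcrb lowest with 404 and 437. In complex II Sdhd stood highest with 2262 and 2396 and Sdha lowest with 847 and 1058. In complex IV the highest were Cox8a with 15259 and 14070 and Cox6a1 with 13048 and 10408, and the lowest well-expressed common forms were Cox7b with 694 and 861 and Cox7c with 1022 and 1391. In complex V Atp5g3 stood highest with 87271 and 75659, and Atp5l lowest with 42.6 and 41.4. These ranks depend on the length used. Per kb of coding length Sdhc stood highest in complex II with 8987 and 10090, and Cox5a in complex IV with 53266 and 47807. By that measure Uqcrh led complex III in the KO-labelled library with 12379, and Atp5l had 870 and 846. Across the 81 genes the levels per kb in both libraries had a Spearman rho of 0.987, as a description across genes that share a library. Ndufs8 and Ndufb2, both single subunits of complex I, thus differed by more than 100 times per kb of longest transcript, and per kb of coding length they had 27285 and 1713 in the WT-labelled library.

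**Figure D3:**
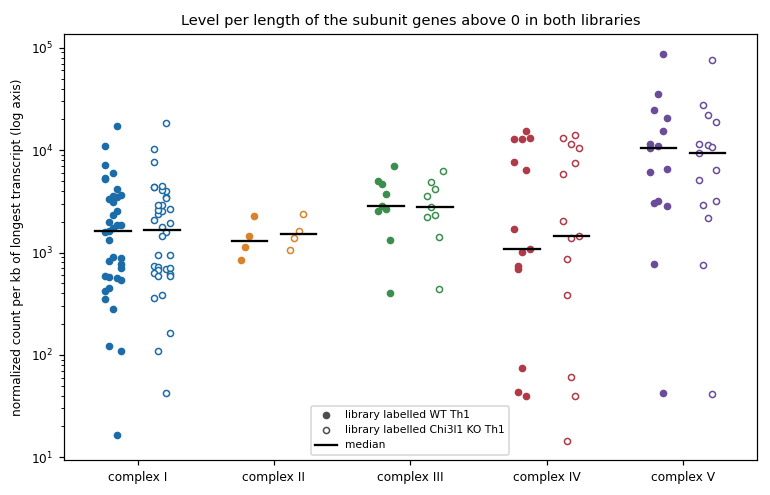
Normalized count per kb of longest transcript (log axis) of the subunit genes above 0 in both libraries, by complex, with filled points for the WT-labelled and open points for the KO-labelled library and a bar at the median over genes with reads in either, restricted paralogs of complex IV included. The median bars of complex V, at 10503 and 9407, lie above those of all other complexes in both libraries.

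The fold change of members varied with the GC content of their transcripts, as it did for all genes. Spearman's rho between log2 fold change and GC content was -0.30 over 71 well-expressed structural members and -0.53 over 8841 well-expressed genes. Among the 24 members with the lowest GC content the median log2 fold change was 0.11, among the next 24 it was 0.02 and among the 23 with the highest -0.09, while all genes in the same ranges had 0.16, -0.03 and -0.25. The members therefore followed the direction of the trend with a smaller range. With the trend of all genes removed, the medians of complexes I to V became 0.10, 0.18, 0.02, 0.18 and -0.20, so that complex V kept its sign and moved further from 0, complex II kept its sign, and complexes III and IV changed sign. The complex IV medians before and after are the values of Cox7a1, with 20 reads in each library. Over the 10 well-expressed genes of complex IV the medians were 0.13 and 0.20. What part GC content has in the difference between the libraries was not tested. Log2 fold change and mean log2 value had a rho of -0.38 over the same 71 members. The more abundant members thus tended to be lower in the KO-labelled library, and this relation was not computed over all genes. With transcript length rho was 0.0 over the 71 members.

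**Figure D4:**
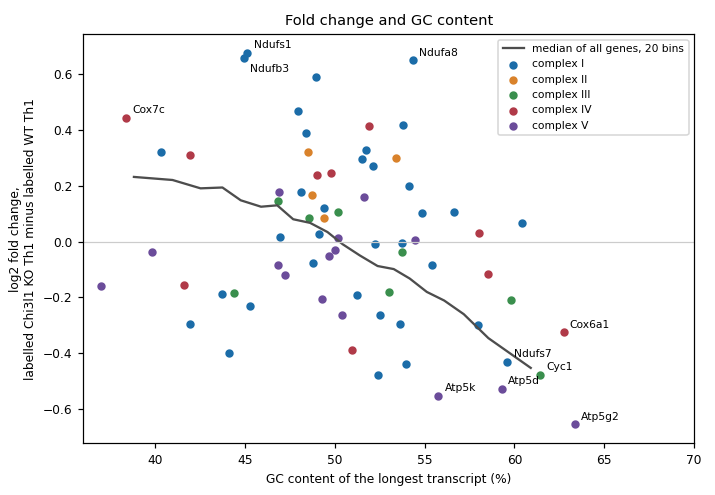
Log2 fold change (KO-labelled minus WT-labelled library) against the GC content of the longest transcript in percent, for the 71 well-expressed subunit genes, coloured by complex, with the median of all such genes in 20 bins as a line. Cyc1 and Ndufs7 lie near the right end of the falling line, while Ndufa8 lies above it and Atp5k and Atp5g2 lie below it.

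Genes that work with the complexes were described in the same way. Of 45 assembly factors in the tables, Ndufaf1 to Ndufaf7 among them, 21 were higher and 24 lower, with a median log2 fold change of -0.02. Sco1, a copper chaperone for complex IV, had log2 values of 8.33 and 9.47, a log2 fold change of 1.14 (interval 0.95 to 1.33), and Tmem70, an assembly factor of the ATP synthase, had 9.31 and 10.09, a log2 fold change of 0.78 (0.64 to 0.93). Acad9, which takes part in complex I assembly, went from 8.64 to 9.25. Among the lower ones Bcs1l, which inserts the Rieske protein into complex III, had 953 and 648 reads, a log2 fold change of -0.56 (-0.71 to -0.41), and Uqcc3, another complex III assembly factor, had 152 and 62 reads, a log2 fold change of -1.27 (-1.75 to -0.86). Atpif1, the inhibitor of ATP hydrolysis by complex V, had 10.16 and 10.74, a log2 fold change of 0.58 (0.48 to 0.69), and Cycs, the electron carrier between complexes III and IV, stood at 0.27 (0.13 to 0.41). Of the other genes of these lists that work with complex V, Atpaf2 stood at 0.12 (0.05 to 0.19), Usmg5 at -0.02 (-0.20 to 0.15) and Atpaf1 at -0.255 (-0.47 to -0.04). Partners of complex V thus lay on both sides of 0.

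The 13 transcriptional regulators of mitochondrial genes had a median log2 fold change of -0.22, with 4 higher and 9 lower. Esrra, a nuclear receptor of energy metabolism genes, had 513 and 312 reads, a log2 fold change of -0.72 (interval -0.93 to -0.52). The coactivators Ppargc1b and Pprc1 stood at -0.57 and -0.55, while Ppargc1a had 5 and 1 reads. Tfam, which packages mitochondrial DNA, stood at -0.31, Polrmt, the mitochondrial RNA polymerase, at -0.35, Gabpa at -0.22 and Yy1 at -0.06. Nrf1, the factor whose letters were counted in the promoters above, stood at 0.12, Gabpb1 at 0.14, Tfb1m at 0.10, Tfb2m at 0.15 and Myc at -0.12. As deposited, factors of these genes thus lay on both sides of 0, with Esrra, Ppargc1b and Pprc1 the lowest among the well-expressed ones. With the GC trend removed the median of the list was -0.09, Esrra stood at -0.72, Tfam at -0.45, Gabpa at -0.435, Pprc1 at -0.34 and Ppargc1b at -0.27, and Polrmt turned to 0.08.

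Lists of neighbouring pathways lay close to the members. The 77 mitochondrial ribosomal protein genes had a median of 0.004 with 39 higher and 38 lower, and Mrpl1, of the large subunit, was the only well-expressed one past 1.5-fold, at 1.06. The 13 citric acid cycle enzymes had a median of 0.13 with 9 higher and 4 lower, on the same side as complex II. The 15 glycolysis enzymes had a median of -0.12 with 6 higher and 9 lower, and Gapdh stood at -0.61 (interval -0.613 to -0.607). The 77 cytosolic ribosomal protein genes had a median of 0.12 with 46 higher and 31 lower, from -0.62 for Rps10 to 0.86 for Rps3. With the GC trend removed, the medians of the same 4 lists were 0.04, 0.06, -0.03 and 0.18.

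**Figure D5:**
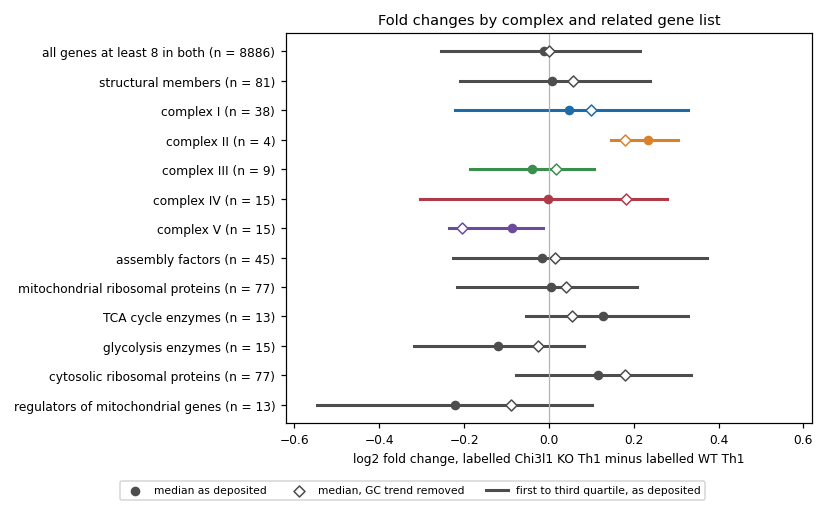
Median log2 fold change (KO-labelled minus WT-labelled library) as deposited (filled) and with the GC trend removed (open diamond), with a line between the lower and upper quartile, for all well-expressed genes, the subunit genes, the 5 complexes and 6 related lists. All medians lie between -0.22 and 0.23, complex II is the highest as deposited, and complex V is the lowest with the GC trend removed.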

How the data were processed

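Polyadenylated RNA was sequenced from both ends of each fragment, mapped with TopHat to mm10 and counted from unique and multiple alignments with edgeR, per the study's methods and the submitters' processing notes. The deposited values were taken to be the log2 of a count, to which 1 was added after the authors' normalization between samples. This unit was inferred: after the log is undone, 99.8% and 99.7% of low values lay within 0.1 of a whole multiple of 1 read (0.967 in the WT-labelled and 0.965 in the KO-labelled library), and reads were rebuilt with these steps. The rebuilt reads summed to 70821206 and 63154801, 3 reads correspond to 1.96 on the log2 scale, and read intervals cover counting error only. Since multiple alignments were counted, genes with near-identical copies are uncertain. In all, 29 members share a stretch of 100 bases with another gene's transcript, and 32 overlap another gene's exon. Among those named with values, shared stretches made up 22.7% of Uqcrc2, 19.85% of Ndufs3, 19.79% of Ndufs5, 19.67% of Cox7c and 16.23% of Atp5h.

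Differences were computed from the deposited log2 values with no further scaling. Lengths, GC content and coordinates came from GENCODE M21 (GRCm38, the assembly of mm10), which held all 93 members, and the GC trend was the median in 20 bins over well-expressed genes (8 or more on the log2 scale in each library). Promoter windows came from RefSeq. The members and lists were chosen with earlier results of these data known. Named genes were the members past 2-fold, in each complex the 2 highest and 2 lowest in fold change and in level per length among well-expressed genes, all genes of complexes II and III, the complex I core, the paralogs, the c subunit genes, non-subunits, regulators, and genes of related lists past 1.5-fold. A few genes under this rule and in the marker lists are not reported here. Other members named with values, and Ifng, Cycs, Atpif1, Atpaf1, Atpaf2, Usmg5, Bcs1l and Uqcc3, were chosen after their values were seen. Scalings, the pseudocount, trends with GC content and length, floors, thresholds, shared sequence and the complex of Ndufa4 were varied. The scripts were tested on simulated data and run with scipy 1.17.1, pandas 2.3.3 and numpy 2.4.6 in Python 3.11.15, and figures were drawn with matplotlib 3.10.9.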

Additional observations from a re-analysis of the deposited data

How the results depend on the processing

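With 1 library per label, the complex medians rest on how the libraries are scaled to each other. Scaled to equal totals, the median log2 fold change was 0.175 over the structural genes and 0.215, 0.401, 0.129, 0.158 and 0.082 in complexes I to V, so that III, IV and V changed sign, with 28 members higher and 7 lower past the smaller line (25% higher or 20% lower). Scaled to Actb, complex II had 0.349, and complexes III, IV and V changed sign to 0.077, 0.108 and 0.030, with 23 members at least 25% higher. Complex V was the lowest and complex II the highest under both. The complex IV medians as deposited, under both of these scalings and with the GC trend removed are the values of Cox7a1, with 20 reads in each library. With the GC trend removed complex IV changed sign to 0.183 and complex V had -0.204, and with GC and length trends removed they had 0.10 and -0.209. Cox6a1 changed sign to 0.128 and 0.045 under the same settings. Over well-expressed genes alone, complex IV had 0.134 and complex III, then the lowest, -0.111, and 0 members were past 2-fold. Complex V had -0.014 under quantile normalization, where complex III was the lowest with -0.051, and -0.042 without members that share a 100-base stretch or without those that overlap another exon. In the first of these settings complex IV was the lowest with -0.117 and complex III turned to 0.022. At 1.5-fold 8 members were higher and 5 lower. With Cox6a2 set against 3 reads and Ndufa4l2 left out, the medians of complexes I and IV were 0.068 and -0.002. Of the 27 structural genes past the smaller line, 27 kept their sign under each scaling, the pseudocount of 0.1 and the length trend, and 26 under removal of the GC trend, where Cox6a1 was the exception. Without the restricted paralogs, the level per length of complex V over complex IV was 1.64 in the WT-labelled and 1.61 in the KO-labelled library. Leaving out these paralogs, the removal of GC and length trends, the exon overlap and the shared stretches were chosen after seeing the data. The causes of these shifts were not tested. No paired analysis was possible because each genotype has 1 library.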
